A study of Mus musculus with 9 samples.

Results

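The interferon regulatory factors are DNA-binding proteins that switch on interferon genes and the genes that interferons induce. The members described here, Irf1, Irf2, Irf3, Irf4, Irf5, Irf7, Irf8 and Irf9, were found by gene symbol in a table of liver transcripts. All 8 were present once each among the 27179 genes of the table, and all 8 reached the mean of 10 normalized counts that was required for the test between groups.

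All family members share an N-terminal domain that binds repeats of the bases GAAA in the control regions of their targets. In resting cells IRF3 sits in the cytoplasm and is phosphorylated when sensors of foreign nucleic acid signal through the kinases TBK1 and IKKε. IRF7 is activated in the same way, is itself an interferon-induced gene and amplifies type I interferon production. Type I interferon then acts through its receptor to assemble ISGF3, the complex whose DNA-binding subunit is IRF9. IRF1 is induced by interferon gamma and drives antigen presentation genes, while IRF2 binds many of the same sites and often opposes it. IRF4, IRF5 and IRF8 are best known from lymphocytes, macrophages and dendritic cells, cells that sit among the hepatocytes of the liver.

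The livers came from wild-type C57BL/6J mice that received, at 17 months of age, a retro-orbital injection of AAV8 carrying saCas9, a compact Cas9 nuclease, under the TBG promoter. A U6 cassette of that vector expressed the guide: it targeted Ccnd1 in 5 mice (sgCcnd1) or the Rosa26 locus, a customary neutral cutting site, in 4 control mice (sgRosa26), at equal dose. The m-lobe was frozen 3 weeks later and its polyadenylated RNA was sequenced. Both groups thus carried virus, nuclease and a cut, there were no uninjected animals, and the TBG promoter restricts the nuclease to hepatocytes while the RNA represents every cell of the lobe. According to its title, the series asked whether loss of Ccnd1 in hepatocytes lowers inflammatory signalling in aged liver. In column order, the control libraries carry the letters A to D here and the sgCcnd1 libraries the letters E to I.

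Depth was 10.8 to 20.2 M (mega) gene-assigned reads per library, and the 10 most abundant genes took 19.5% to 22.9% of them. Ccnd1, the targeted gene, was 744 ± 110 normalized counts in sgRosa26 (SD, n = 4) and 362 ± 40.6 in sgCcnd1 (SD, n = 5). Its 5 sgCcnd1 libraries lay at 325 to 428, below the control range of 625 to 867, and it was the 1 gene of 12993 that passed the test (log2 fold change -1.03, limma adjusted p = 0.0116). With 1 library left out it missed the threshold without B (adjusted p = 0.0852), D (0.0559), F (0.0589), H (0.0611) or I (0.0624), at log2 fold changes of -1.02 to -0.96. Library H, labelled sgCcnd1, stood apart from the other 8 by its Y-linked transcripts: Ddx3y was 2 normalized counts there and 810 to 1154 elsewhere, Eif2s3y, Kdm5d and Uty were at 0, and Xist was at most 3.92 in any library. Where leaving out H ended a call at the adjusted threshold, that is said beside the result. Hepatocyte markers, led by Alb and Apoa1, summed to 1807913 to 2065520 normalized counts in sgRosa26 and 1717587 to 2167126 in sgCcnd1, which is the labelled tissue. In bulk RNA, fewer cells of a type and less RNA per cell cannot be told apart.

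The family spanned a wide range of transcript levels. Per kilobase of mRNA, Irf3 and Irf2 stood at the top, with means over the 9 libraries of 489 and 487 normalized counts per kb, and Irf3 exceeded Irf2 in 4 of 9 libraries, so that their order is not settled. Irf7 followed at 359 per kb and Irf1 at 291 per kb, with Irf7 above Irf1 in 6 of 9 libraries. Irf1, Irf9 at 208 per kb, Irf5 at 121 per kb and Irf8 at 36.6 per kb each exceeded the next in 9 of 9 libraries, and Irf4 was last at 2.53 per kb. Irf3, Irf2, Irf7, Irf1 and Irf9 were thus the more abundant members in this tissue. Irf5, Irf8 and Irf4, best known from immune cells, were the scarcer ones. The position of Irf7 differed between groups: Irf2 was above Irf7 in 5 of 5 sgCcnd1 libraries and in 2 of 4 control libraries.

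Stretches of promoter are printed here for the members whose sequence before the start holds an interferon-type motif. The letters GAAANNGAA (the core bound by the family) and TTCNNNGAA (the gamma-activated site, called GAS) were searched on both strands of RefSeq promoter windows, 250 bases before to 50 after a start, in GRCm38.p6. The family core occurred in 8.56% and GAS in 8.3% of all 32851 windows. All 8 members had a window, 11 in total. Of the 8, only Irf2 held the family core, and Irf1, Irf2 and Irf8 held GAS. Capitals mark the matches, and all stretches are on the plus strand, at chr11:53769894-53769962 for Irf1, chr8:46739495-46739559 for Irf2 and chr8:120736157-120736243 for Irf8.
Irf1: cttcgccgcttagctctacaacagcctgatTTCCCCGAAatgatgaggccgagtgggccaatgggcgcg
Irf2: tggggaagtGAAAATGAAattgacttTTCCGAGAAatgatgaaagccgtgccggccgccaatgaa
Irf8: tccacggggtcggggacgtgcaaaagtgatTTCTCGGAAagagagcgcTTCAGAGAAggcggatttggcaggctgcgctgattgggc
The match in Irf1 runs from -90 to -82 relative to the start. In Irf2 the family core runs from -241 to -233 and GAS from -224 to -216. Irf8 holds GAS at -171 to -163 and again at -153 to -145. TATAAA, present in 13.6% of all windows, was found in the windows of Irf4, Irf7 and Irf8, and none of the motifs in those of Irf3, Irf5 and Irf9. For Irf9 the RefSeq starts lie 414 and 1008 bases inside the GENCODE gene, so neither window covers the sequence before the GENCODE start, and for Irf7 the RefSeq start lies 57 bases inside. A match describes the letters only, and binding was not measured here.

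Between the groups, 7 of 8 members had a log2 fold change (sgCcnd1 over sgRosa26, on log2 of normalized count + 1) below 0, against 47.1% of all genes tested. The median was -0.29 for the members and 0.014 for all genes. None of the 8 passed the adjusted test, where 0.0077% of all genes were called lower. At an unadjusted limma p under 0.05, Irf7 and Irf9 were lower, 2 of 8 members against 5.74% of all genes, and 0 of 8 were higher against 5.22%. Irf7 alone had no overlap between groups with all sgCcnd1 libraries lower, 1 of 8 members against 1.97% of all genes. DESeq2 run on the recovered reads called 0 of 8 members lower against 0.539% of all genes. The plot of fold changes shows that the intervals of 6 members include 0.

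**Figure D1:**
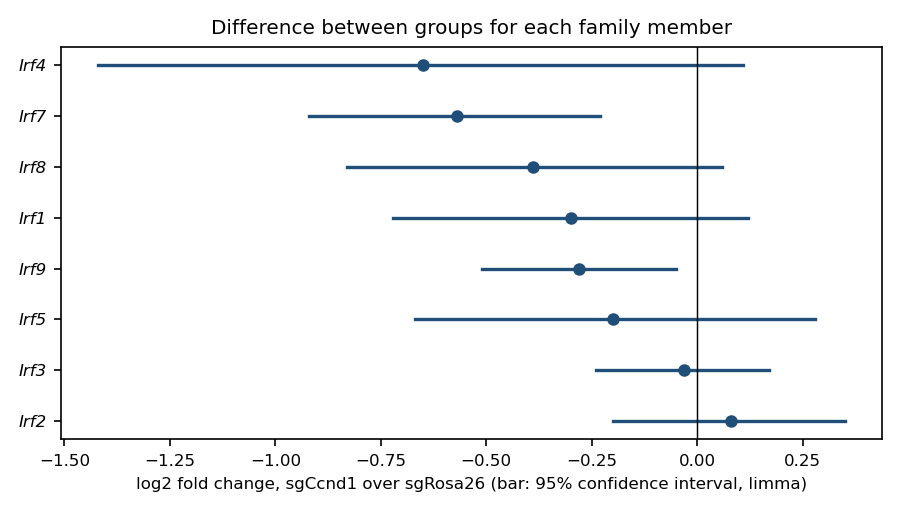
Log2 fold change of each family member, sgCcnd1 over sgRosa26 (x axis), with its 95% confidence interval from limma as a bar. Irf7 at -0.57 and Irf9 at -0.28 have intervals that lie below 0, and Irf2 at 0.08 is the only one of the 8 on the other side.

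Irf7, the amplifier of type I interferon production, showed the clearest separation. The gene lies at chr7:141262706-141266481 on the minus strand (GRCm38, Entrez 54123). It was 871, 871, 822 and 1392 normalized counts in the controls A to D and 503, 696, 754, 663 and 657 in E to I. Every sgCcnd1 library was below every control, and control D stood far above the other 3. The group means were 989 ± 269 (SD, n = 4) and 655 ± 93.0 (SD, n = 5), so that sgCcnd1 stood at 66.2% of the control level. The log2 fold change was -0.57 (SE 0.158, 95% interval -0.92 to -0.23), the exact two-sided permutation p was 0.00794, the smallest this design allows, and the limma adjusted p was 0.266. By limma p, Irf7 ranked 162 of 12993 genes. Without D the log2 fold change was -0.40, and without H it was -0.58. The adjusted p was 0.0522 under DESeq2 (0.169 without H) and 0.236 under edgeR.

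Irf9, the DNA-binding subunit of ISGF3, was the other member lower at an unadjusted p under 0.05. This gene (Entrez 16391) occupies chr14:55603571-55610030 on the plus strand. Its values were 655, 707, 611 and 744 normalized counts in A to D and 544, 546, 632, 461 and 627 in E to I. Libraries E, F and H were below all controls, while G and I lay above control C. The means were 679 ± 58.3 (SD, n = 4) and 562 ± 70.8 (SD, n = 5), or 82.7% of control. The log2 fold change was -0.28 (SE 0.106, 95% interval -0.51 to -0.05), with an exact permutation p of 0.0476 and a limma adjusted p of 0.372. It rested in part on single libraries: the unadjusted limma p was 0.0511 without B, 0.0672 without D and 0.0565 without H, where the log2 fold change was -0.21.

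Irf3, the constitutive sensor-activated factor (chr7:44997648-45002848, plus strand, Entrez 54131), had levels in sgCcnd1 on both sides of those in the controls. Its levels were 992, 1050, 934 and 1044 normalized counts in A to D and 922, 1160, 992, 994 and 860 in E to I. Libraries E and I were below all controls, F was above all of them, and G and H lay among them. The log2 fold change was -0.03 (SE 0.0926, 95% interval -0.24 to 0.17, limma adjusted p = 0.923). Set against Irf3 within each library, Irf7 had a mean log2 ratio of -0.06 ± 0.32 in sgRosa26 (SD, n = 4) and -0.60 ± 0.21 in sgCcnd1 (SD, n = 5), with all 5 sgCcnd1 libraries below all controls. The same ratio for Irf9 was -0.57 ± 0.06 and -0.81 ± 0.28, with 4 of 5 below.

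Irf5, which carries toll-like receptor signals to inflammatory cytokine genes in macrophages (chr6:29526625-29541871, plus strand, Entrez 27056), varied more between mice than between groups. It was 424, 268, 270 and 212 normalized counts in A to D and 342, 248, 172, 304 and 209 in E to I. Control A was the highest library and control D among the lowest, so the groups overlapped almost wholly. The log2 fold change was -0.20 (SE 0.219, 95% interval -0.67 to 0.28, limma adjusted p = 0.763). It was -0.01 without A, -0.07 without G, -0.34 without D and -0.32 without E.

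**Figure D2:**
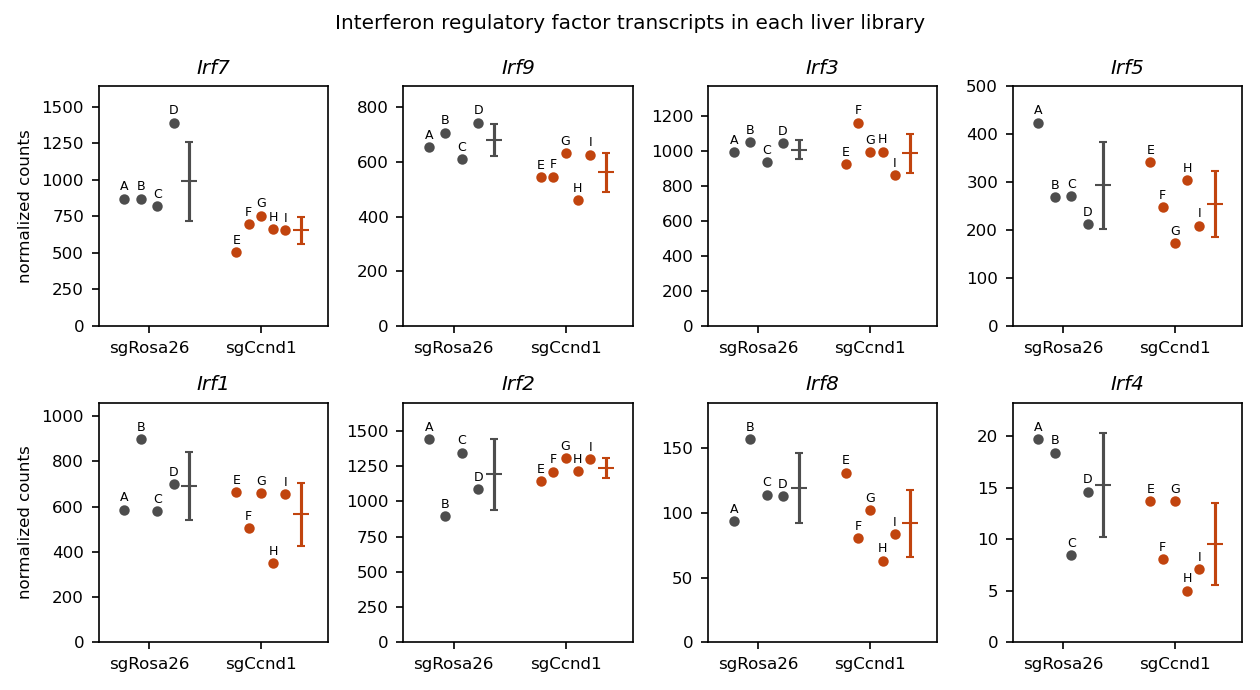
Normalized counts (y axis, linear, from 0) of the 8 members in each library; grey points A to D are sgRosa26, orange points E to I are sgCcnd1, and the bar beside each group is the mean with 1 SD. For Irf7 all 5 sgCcnd1 points (503 to 754) lie under the 4 control points (822 to 1392), and for every other member the groups overlap.

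Irf1 and Irf2 compete for similar sites and both hold a GAS match in the promoter stretches above. Irf1 (chr11:53770014-53778374, plus strand, Entrez 16362) was 586, 898, 581 and 698 normalized counts in A to D and 665, 505, 658, 349 and 656 in E to I. Control B was the highest library and H the lowest, and E, G and I lay within the control range. The means were 691 ± 148 (SD, n = 4) and 566 ± 139 (SD, n = 5), which differed by -0.30 on the log2 scale (SE 0.194, 95% interval -0.72 to 0.12, limma adjusted p = 0.584). Without H the log2 fold change was -0.14, and without B it was -0.17.

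Irf2 (chr8:46739732-46847458, plus strand, Entrez 16363) was 1441, 893, 1344 and 1084 normalized counts in A to D and 1145, 1209, 1307, 1214 and 1301 in E to I. All 5 sgCcnd1 libraries lay inside the control range, and they were less scattered than the controls, with a coefficient of variation of 5.55% against 20.9%, a difference that was not tested. The log2 fold change was 0.08 (SE 0.125, 95% interval -0.20 to 0.35, limma adjusted p = 0.856), and it turned to -0.05 without B. Irf1 and Irf2 lay furthest from each other in level in library H, with a log2 ratio of Irf1 to Irf2 of -1.80, and closest in control B, with 0.01. The mean ratio was -0.78 ± 0.60 in sgRosa26 (SD, n = 4) and -1.16 ± 0.39 in sgCcnd1 (SD, n = 5).

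Irf8 directs the development of monocytes and dendritic cells together with PU.1 (chr8:120736358-120756694, plus strand, Entrez 15900). It was 93.4, 157, 114 and 113 normalized counts in A to D and 131, 80.6, 102, 63 and 83.7 in E to I. Libraries F, H and I were below all controls, G lay between controls A and D, and E was second only to control B. The means were 119 ± 26.8 (SD, n = 4) and 92.0 ± 25.8 (SD, n = 5), with a log2 fold change of -0.39 (SE 0.205, 95% interval -0.83 to 0.06, limma adjusted p = 0.512), or -0.26 without H and -0.25 without B.

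Irf4, the factor of plasma cell and activated lymphocyte programmes (chr13:30749226-30766976, plus strand, Entrez 16364), was close to the limit of what this depth resolves. It was 19.7, 18.4, 8.45 and 14.6 normalized counts in A to D and 13.7, 8.06, 13.7, 5 and 7.1 in E to I. Control C was low among its group, and F, H and I were below all controls. The log2 fold change was the largest in size of the family at -0.65, but with the widest error (SE 0.354, 95% interval -1.42 to 0.11, limma adjusted p = 0.521), and it was -0.47 without H.

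Across libraries the members did not follow 1 common pattern, as the map of single libraries shows. Library H held the lowest value of 4 members (Irf1, Irf4, Irf8 and Irf9), E that of Irf7, G that of Irf5 and I that of Irf3. Among controls, A held the highest value of Irf2, Irf4 and Irf5, B that of Irf1 and Irf8, and D that of Irf7 and Irf9. The mouse with the most Irf7 was thus not the one with the most Irf1. After the mean of each group was subtracted, the members most alike over the 9 libraries were Irf1 and Irf8 (Pearson r = 0.84) and Irf1 and Irf9 (r = 0.82). Irf7 was most like Irf9 (r = 0.45), and Irf2 and Irf5 were most like each other (r = 0.20). These correlations rest on few libraries that share depth and handling, and are descriptions.

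**Figure D3:**
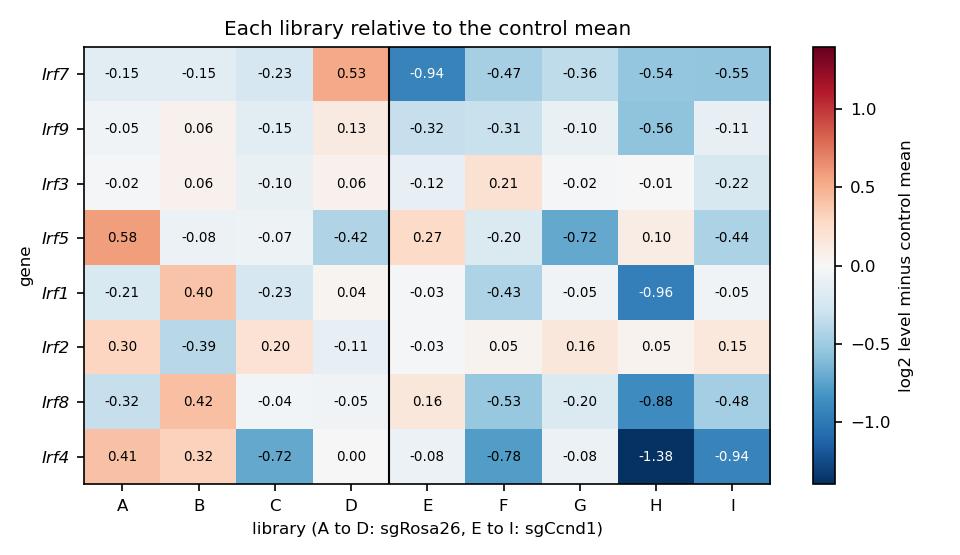
Log2 level of each member (rows) in each library (columns; controls left of the line, sgCcnd1 right of it) minus the control mean of that member; red is above and blue below that mean. The row of Irf7 is below the control mean in all 5 sgCcnd1 libraries and reaches 0.53 in control D, while library H is deepest for Irf4 (-1.38) and Irf1 (-0.96).

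Among the 10351 tested genes that averaged 50 or more normalized counts, the same measure gave the genes whose library pattern was closest to each member. For Irf8 these were Elf4 (r = 0.94), C1qb (r = 0.94) and Sp100 (r = 0.91). For Irf7 they were Mrpl15 (0.96), Plekhb1 (0.95) and Nherf1 (0.94), and for Irf9 Klhl7 (0.98), Tcirg1 (0.97) and Nt5e (0.95). Irf1 was closest to Plod1 (0.94), Grb2 (0.93) and Gas1 (0.92), and Irf2 to Ascc3 (0.99), Akap11 (0.98) and Cbx5 (0.98). Irf3 was closest to Cuedc2 (0.97), Rpl41 (0.96) and Gpatch11 (0.96). Irf5 was closest to Pkdcc (0.98), Zfp865 (0.95) and Med1 (0.94), and Irf4 to Renbp (0.91), Zfp747 (0.91) and Stx18 (0.89). Every member thus reached at least 0.89 with its 3 closest genes. Picked as the highest of 10351 genes over 9 libraries, such values do not by themselves show a link.

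The ligands that set the family in motion were almost absent from these libraries. Of 21 interferon genes, 19 were listed at 0 in every library, among them Ifnb1 and all alpha interferons of the list, and none reached the minimum for testing. A count of 0 allows up to 3 reads in a library, for counting error only. Ifng, the interferon of T and NK cells, was 1.23, 1.75, 0.939 and 2.91 normalized counts in A to D and 0.762, 0, 0, 0 and 1.42 in E to I, a few reads per library. Receptors were well measured and close to each other between groups: of 5 tested, 2 were lower and 3 higher, none at an unadjusted p under 0.05 (1 lower without D), with a median log2 fold change of 0.02 (-0.07 without B, -0.08 without G). Ifngr2 was at -0.20, Ifngr1 at -0.14 and Ifnar1, a chain of the type I receptor, at 0.10.

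Stat2, another subunit of ISGF3, was 1462, 1594, 1284 and 2006 normalized counts in A to D and 1589, 1335, 1523, 1344 and 1307 in E to I. Control D was again the highest library, as for Irf7 and Irf9, and all 5 sgCcnd1 libraries lay within the control range. The means were 1586 ± 307 (SD, n = 4) and 1420 ± 127 (SD, n = 5), which differed by -0.15 on the log2 scale (limma adjusted p = 0.676). Jak2, a kinase of the interferon gamma receptor, was at 0.08.

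The kinases and adaptors that activate IRF3, IRF5 and IRF7 showed no shared direction. Of 16 tested, 9 were lower and 7 higher, with a median log2 fold change of -0.02. At an unadjusted limma p under 0.05, 3 were lower (5 without E, 2 without A, C, F, G or I) against 5.74% of all genes. At that level 1 was higher, against 5.22% of all genes. These shares are the background of every list below. Of all genes tested, 47.1% had a fold change below 0, 1.97% were lower with no overlap and DESeq2 called 0.539% lower. The lower ones were Tbkbp1, a TBK1 adaptor, at -0.31, Ikbke, which encodes IKKε, at -0.30, and Traf3 at -0.21 (named here to complete that count). Ikbke was 666, 558, 491 and 490 normalized counts in A to D and 475, 444, 444, 457 and 403 in E to I, so that the groups did not overlap, though E came close to the lowest control. The higher one was Mavs, the adaptor of cytoplasmic RNA sensors, at 0.19, and without B, D, E or H, and under quantile normalization, 75th percentile scaling or edgeR with TMM, no gene was higher at that level (2 without A). No gene of this list passed the adjusted test under limma or DESeq2.

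Among the DNA-binding partners and corepressors, 7 of 8 tested genes were lower, with a median of -0.18, and 2 of them at an unadjusted p under 0.05 (4 without G). Junb at -0.01 and Irf2bpl, still nearer 0, count among the 7, and 5 were lower without C or E. The median was -0.28 without G, -0.12 without F or H, and -0.01 for the 5 genes that reach a mean of 100. Spi1, which encodes PU.1, the partner of IRF4 and IRF8, was 93.4, 80.6, 73.2 and 97.1 normalized counts in A to D and 61.7, 50.1, 61.7, 48 and 36.9 in E to I. No sgCcnd1 library reached the lowest control (log2 fold change -0.74, limma adjusted p = 0.245, DESeq2 adjusted p = 0.0325, or 0.169 without H). Ciita, the coactivator of class II antigen presentation, was 69.2 ± 14.6 (SD, n = 4) and 31.3 ± 15.1 (SD, n = 5), at -1.21 (limma adjusted p = 0.25, DESeq2 adjusted p = 0.0368). Without H the DESeq2 adjusted p of Ciita was 0.169 as well, so that neither gene was called. The DESeq2 log2 fold changes without H were -0.69 for Spi1 and -1.02 for Ciita. Nlrc5, its class I counterpart, was at -0.23. Of 11 negative regulators tested, 9 were lower, with a median of -0.14 (-0.06 without B, -0.07 under quantile normalization). Usp18, an interferon-induced brake on the type I receptor, was 187 ± 43.6 (SD, n = 4) and 120 ± 24.7 (SD, n = 5), at -0.64. Trim30a was at -0.44 and Rbck1, a component of a ubiquitin ligase, at -0.15.

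The targets of ISGF3 were the largest list. Of 29 tested, 27 were lower and 2 higher, with a median log2 fold change of -0.48 against 0.014 for all genes. At an unadjusted p under 0.05, 16 were lower against 5.74% of all genes, and 0 were higher against 5.22%. None passed the adjusted limma test, whereas DESeq2 called 8 lower, against 0.539% of all genes: Cmpk2, Rsad2, Ifi44, Ifit1, Mx1, Oasl2, Zbp1 and Isg15. Cmpk2, a nucleotide kinase next to Rsad2, was 192, 260, 190 and 309 normalized counts in A to D and 123, 106, 126, 135 and 149 in E to I. Its 5 sgCcnd1 libraries lay below all controls (log2 fold change -0.87, limma adjusted p = 0.173, DESeq2 adjusted p = 0.000329). Rsad2, which encodes the antiviral enzyme viperin, was at -0.81 (limma adjusted p = 0.225), and Ifi44 at -0.86 (limma adjusted p = 0.227). Control D held the highest control value of 17 of the 29 genes, as it did for Irf7 and Irf9, and without D the median was -0.39 with 14 genes at an unadjusted p under 0.05. Without H, 28 were lower, 13 at an unadjusted p under 0.05, and the median was -0.49, while DESeq2 called 4 (Cmpk2, Rsad2, Ifi44 and Ifit1).

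The interferon gamma targets linked to IRF1 were lower as well, but their extremes came from other mice. Of 27 tested, 27 were lower, against 47.1% of all genes, with a median of -0.38. At an unadjusted p under 0.05, 15 were lower, against 5.74% of all genes. DESeq2 called 5 (Gbp3, Irgm1, Gbp2, Igtp and Cxcl10), against 0.539% of all genes. Gbp3, a guanylate-binding protein of cell-autonomous defence, was 166, 231, 160 and 201 normalized counts in A to D and 101, 107, 123, 94 and 114 in E to I. The groups were fully separate (log2 fold change -0.80, limma adjusted p = 0.135, DESeq2 adjusted p = 0.000203). Irgm1 was 1119 ± 149 (SD, n = 4) and 824 ± 96.7 (SD, n = 5), at -0.44. Gbp2 was 213, 410, 158 and 124 normalized counts in A to D and 114, 92.2, 78.3, 72 and 128 in E to I, at -1.10. The top Gbp2 value was that of B, and I lay just above the lowest control.

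Control B held the highest control value of 21 of these 27 genes, and H the lowest sgCcnd1 value of 16, the same 2 libraries that bounded Irf1. Without B, 26 were lower and 9 at an unadjusted p under 0.05, with a median of -0.30. Without H, 26 were lower and 10 at an unadjusted p under 0.05, with a median of -0.32, and DESeq2 called only 1 of the 27, Gbp3. With all libraries and a minimum mean of 100, 18 of 18 tested were lower, 9 at an unadjusted p under 0.05, with a median of -0.26. Averaged over the list, log2 levels relative to the control mean were -0.11, 0.36, -0.22 and -0.04 in A to D and -0.26, -0.47, -0.46, -0.72 and -0.33 in E to I. The same average over the ISGF3 targets was -0.17, 0.11, -0.24 and 0.30 in A to D and -0.52, -0.55, -0.32, -0.52 and -0.46 in E to I. In both lists the sgCcnd1 averages were all below the 4 control averages.

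**Figure D4:**
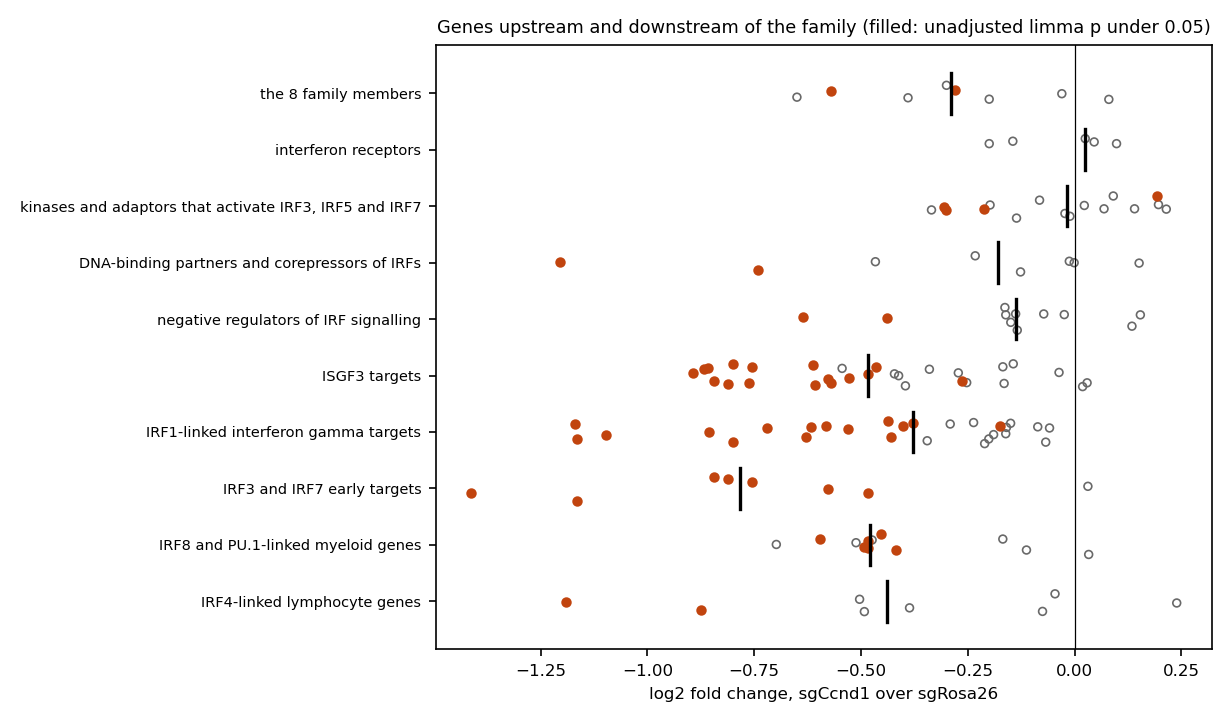
Log2 fold change (x axis) of each tested gene in the lists around the family (rows), filled where the unadjusted limma p was under 0.05, with the median of each list as a black bar. Receptors and the activating kinases and adaptors centre near 0, whereas the ISGF3 targets centre on -0.48 and the targets linked to IRF1 on -0.38.

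The early targets that IRF3 and IRF7 can induce directly also stand in the previous lists, apart from Ccl5 and Zc3hav1. Of 8 tested, 7 were lower, all 7 at an unadjusted p under 0.05, with a median of -0.78, while Zc3hav1 was at 0.03 and Ifnb1 was listed at 0. Ifit1, which binds foreign RNA caps, was 197, 215, 173 and 341 normalized counts in A to D and 101, 157, 132, 121 and 116 in E to I (log2 fold change -0.84, DESeq2 adjusted p = 0.00766, limma adjusted p = 0.227). The groups did not overlap, and D was again the top library. Isg15, a ubiquitin-like modifier, was 215, 217, 140 and 334 in A to D and 116, 142, 153, 123 and 109 in E to I, in normalized counts, at -0.76. Here F and G were above control C. DESeq2 called 4 genes of this list (Rsad2, Ifit1, Isg15 and Cxcl10), and without H it called 2, Rsad2 and Ifit1.

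Of 4 genes linked to IRF2, 4 were lower, 1 at an unadjusted p under 0.05, with a median of -0.18 (-0.09 without H or at a minimum mean of 100). Without B, 3 were lower and 0 at that level. Among them Casp4, the caspase that senses bacterial lipopolysaccharide in the cytoplasm, was 31.5 ± 7.98 normalized counts (SD, n = 4) and 17.4 ± 7.01 (SD, n = 5). Its log2 fold change was -0.90 (limma adjusted p = 0.346). Tlr3, a sensor of double-stranded RNA, was at -0.26. Of the 8 cytokine genes linked to IRF5, only Il1b reached the minimum for testing, with 35.6 ± 16.6 normalized counts (SD, n = 4) and 24.7 ± 8.4 (SD, n = 5), at -0.48 (limma adjusted p = 0.573). Control A was the highest library with 60.2, and without it the log2 fold change was -0.20.

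The myeloid genes linked to IRF8 and PU.1 were lower in 11 of 12 tested, 6 at an unadjusted p under 0.05, with a median of -0.48 (-0.43 without H). At a minimum mean of 100, 4 of 5 tested were lower, 2 at an unadjusted p under 0.05, with a median of -0.17. Cybb, the catalytic subunit of the phagocyte oxidase, was 229, 206, 193 and 209 normalized counts in A to D and 170, 109, 141, 152 and 179 in E to I. Every sgCcnd1 library was below every control (log2 fold change -0.49, limma adjusted p 0.271). Ctss, a lysosomal protease of antigen-presenting cells, was 624 ± 83.6 (SD, n = 4) and 449 ± 82.8 (SD, n = 5), at -0.48, and Ncf1, an oxidase subunit, was at -0.42. Of 8 lymphocyte genes linked to IRF4, a list that includes the member Irf8, 7 were lower, 2 at an unadjusted p under 0.05, with a median of -0.44 (-0.25 without B, -0.27 without I, -0.06 at a minimum mean of 100). Without A, 4 of 7 tested were lower, and without B, 5 of 7. Those 2 were Mzb1, a plasma cell chaperone, at -0.87, and Ikzf3, a lymphoid zinc finger factor, at -1.19, and without B none of the 7 that could then be tested was at an unadjusted p under 0.05, with 1 without C, F or H.

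Markers of the cells that carry IRF4, IRF5 and IRF8 were summed in each library, and the ranges of 2 lists, monocyte and dendritic cell markers, did not overlap between groups. No gene of any marker list passed the adjusted limma test. Of all genes tested, 47.1% were below 0, 5.74% were lower at an unadjusted p under 0.05 and DESeq2 called 0.539% lower. The 10 monocyte and macrophage markers, led by Mpeg1 and Lyz2, summed to 3140 to 3745 normalized counts in sgRosa26 and 2251 to 2752 in sgCcnd1, so that every control exceeded every sgCcnd1 library. Of them 9 were lower, 4 at an unadjusted p under 0.05 (7 without E), with a median of -0.45. DESeq2 called 3, Mpeg1 at -0.62, Lyz2 at -0.44 and Cd68 at -0.71, and without H it called 2, Mpeg1 and Lyz2. Conventional dendritic cell markers, led by Clec9a and Itgax, summed to 216 to 269 in sgRosa26 and 136 to 213 in sgCcnd1, with 6 of 6 tested lower, 1 at an unadjusted p under 0.05 (0 without B, F or H), and a median of -0.46 (-0.19 without B, -0.28 without F or under quantile normalization, -0.27 with a pseudocount of 10). Kupffer cell markers, led by Cd5l and Clec4f, summed to 2919 to 4153 and 2892 to 3492, with 7 of 11 lower, 2 at an unadjusted p under 0.05 (C1qa at -0.35 and C1qc at -0.29), and a median of -0.06. Without D, 4 were lower, 1 at an unadjusted p under 0.05, and the median was 0.09. Without E, 4 were at an unadjusted p under 0.05, and the median ranged from -0.20 (without H) to 0.09 over single libraries left out.

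T and NK cell markers, led by Cd4 and Nkg7, summed to 125 to 316 normalized counts in sgRosa26 and 63 to 213 in sgCcnd1. All 7 tested were lower, 5 at an unadjusted p under 0.05, with a median of -1.06. That count rested on single libraries: it was 1 without B, 1 without C, 2 without H, 3 without F, G or I, 3 under edgeR, and 7 without D or E. The median was -0.65 with a pseudocount of 10. B and plasma cell markers, led by Ighm and Jchain, summed to 1275 to 2965 and 1020 to 3113, and their sums overlapped almost wholly. Of them 9 of 9 tested were lower (6 of 9 without I, 6 of 8 without B, 7 of 8 without A). Only 1 was at an unadjusted p under 0.05 (0 without A or B, 4 without E). Neutrophil markers, led by Csf3r and S100a9, summed to 125 to 210 and 80 to 130, with 3 of 3 tested lower. Plasmacytoid dendritic cell markers, led by Tcf4 and Bcl11a, summed to 300 to 389 and 277 to 368, with 1 of 7 testable.

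Endothelial markers, led by Stab2 and Kdr, summed to 2142 to 3347 normalized counts in sgRosa26 and 2439 to 3496 in sgCcnd1, with 5 of 8 lower and a median of -0.02. Without D, 8 of 8 were lower with a median of -0.14, and without C, 3 of 8 with a median of 0.06, while without H 3 were lower with a median of 0.02. Stellate cell markers, led by Dcn and Reln, summed to 3679 to 6023 and 3311 to 4972, with 7 of 8 lower and 3 at an unadjusted p under 0.05 (1 without B, 2 without H, 5 without D). Cholangiocyte markers, led by Spp1 and Sox9, summed to 940 to 1915 and 756 to 1175, with 3 of 5 lower, and 5 of 5 without C and under edgeR or DESeq2. No marker of any list was at 0 in all libraries. The part of these cell markers in the values of the family members and their targets was not tested.

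Reads of overlapping genes could enter some members. In the longest coding transcript, Irf9 shares 123 exonic bases (4.16%) with Rnf31 on the same strand, Irf1 shares 100 (4.68%) with Gm17334, Irf7 shares 45 (2.01%) with Phrf1 and Irf3 shares 8 (0.394%) with Bcl2l12, the last 3 on the opposite strand. Whether the counting used strand is not given in the sources used here. Irf2, Irf4, Irf5 and Irf8 share none.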

How the data were processed

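Poly(A) RNA of 9 liver lobes was sequenced in bulk. The table the authors deposited holds a never-negative signal, called normalized counts in its name, for 27179 Entrez genes. Per the submitters' processing notes the tools were Trim Galore 0.6.7, FastQC 0.74, MultiQC, HISAT2 2.2.1, featureCounts 2.0.3 and DESeq2 2.11.40.8, with mm10 (GRCm38); their settings are not given in the sources used here. In each library 100% of values were whole multiples of 1 number within 0.01, so the signal equals reads divided by a size factor.

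The test used log2(normalized count + 1) of the 12993 genes that averaged 10 or more normalized counts. Groups were compared with limma 3.58.1 (R 4.3.3; lmFit and eBayes with trend, two-sided, no covariates), with Benjamini-Hochberg adjustment over all 12993 genes and a threshold of 0.05. Fold changes on this scale understate changes of low genes. For single genes an exact permutation test, two-sided, was added in scipy 1.17.1 (smallest possible p 0.00794). As alternatives, edgeR 4.0.16 and DESeq2 1.42.0 were run on the recovered reads: edgeR called 1 gene lower and 0 higher, DESeq2 70 lower and 34 higher. Other alternatives were pseudocounts of 0.1 and 10, no filter, a minimum mean of 100, quantile normalization, 75th percentile scaling, robust eBayes, array weights and leaving out each library. The procedures were tested on simulated counts.

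The family members and lists were chosen with earlier results of these data known, so their counts are no independent evidence. The text names the members, Ccnd1, of each list the 3 genes with the smallest limma p and any past the threshold, of each marker list the 2 most abundant genes, and for each member the 3 genes of most similar library pattern; a gene named beyond that rule was chosen after its values were seen. Genes called by DESeq2 that the rule did not name are such additions. Some genes that this rule named are not reported here. Coordinates and mRNA lengths (longest basic coding transcript) come from GENCODE M21 (GRCm38), promoters from RefSeq (GRCm38.p6). The labels call the samples separate mice, and p-values measure the spread between them. Reads carry no molecular identifiers, so depth bounds counting error only. Python 3.11.15 with matplotlib 3.10.9 drew the figures.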

Additional observations from a re-analysis of the deposited data

Results flagged for a closer look

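Dixon's outlier criterion was applied to 40 groups of values, and it marked 2, about the 2 that chance gives at 1 in 20. Irf7 in control library D was 1392 normalized counts, far above the 822 to 871 of the other controls. The summed T and NK cell markers in sgCcnd1 library E were 213 normalized counts, far above the 63 to 96.5 of the other sgCcnd1 libraries.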

How the results depend on the processing

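Irf1, Irf4, Irf5, Irf7, Irf8 and Irf9 kept a negative log2 fold change under every alternative that gave one (23 each, 22 for Irf4, which has no value at a minimum mean of 100), and none of the 8 members passed the adjusted threshold under any. Irf7 ranged from -0.65 to -0.40 (adjusted p 0.0522 to 0.534) and Irf9 from -0.33 to -0.21 (0.299 to 0.699). Irf2 turned to -0.05 without library B (range -0.05 to 0.18 over left-out libraries) and Irf3 to 0.01 without I (-0.09 to 0.01). Leaving out single libraries moved Ccnd1 from -1.11 to -0.96, and it missed the threshold without B, D, F, H or I and at -1.02 in edgeR without H (adjusted p = 0.0559). The genes called lower then numbered 0 to 2, the members lower at an unadjusted p under 0.05 numbered 1 to 3, and those without overlap 1 to 3 (Irf4, Irf7 and Irf9 without C). Genes called lower were 2 after quantile normalization, 0 in edgeR without H, 70 in DESeq2, 56 in DESeq2 with no filter and 27 in DESeq2 without H; genes called higher were 34, 30 and 11 in those 3 DESeq2 fits. DESeq2 without H left 1 member at an unadjusted p under 0.05. The DESeq2 fits without a filter and the edgeR and DESeq2 fits without H were added with the data in view. No paired analysis was possible because a column gives its guide and animal but not the number of its replicate. Cell composition was not measured, and Irf4, at 5 to 19.7 normalized counts, is limited by depth.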
